A study of Mus musculus with 16 samples.

Results

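The 10 genes described here encode the GATA factors and their erythroid complex partners: Gata1, Gata2, Zfpm1, Tal1, Lyl1, Lmo2, Ldb1, Klf1, Nfe2 and Gfi1b. They were taken by gene symbol from the 55487 genes of the count table, and each symbol matched 1 row. All 10 passed the filter on low counts, which left 14435 genes, and the lowest value of any of them was 618 expected counts (Zfpm1 in 1 library). The cells were mouse leukaemia cells that express the fusion gene CBFB::MYH11, the product of inv(16) in acute myeloid leukaemia, together with GFP. Per the design text they carried a doxycycline-inducible shRNA against MYH11 and grew in congenic recipient mice. RNA of GFP-sorted cells was sequenced in 16 libraries. Of the 5 groups, secondary disease holds 4 libraries from spleens of a separate cohort kept on doxycycline until signs of fatal disease. Doxycycline spleen and doxycycline marrow hold 3 libraries each, from mice given 3 mg/ml doxycycline in 5% sucrose water for 7 days. Control spleen and control marrow hold 3 libraries each, from mice given 5% sucrose water for 7 days. Control labels mention the fusion and not the shRNA, whereas by the design text transduced cells went into both arms. Doxycycline was not given to cells lacking the shRNA, so the drug and the knockdown cannot be told apart.

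GATA1 and GATA2 are zinc finger transcription factors that bind the same GATA motifs. In red cell precursors GATA1 works in a complex with TAL1, LMO2 and LDB1, in which LMO2 bridges the DNA-bound factors and LDB1, which binds to itself, brings enhancers and promoters together. GATA2 is the GATA factor of stem cells, early progenitors and mast cells, and as erythroid cells mature GATA1 takes its place on many sites, a change known as the GATA switch, for which the cofactor FOG1 (the product of Zfpm1) is needed at many genes.

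Promoter sequence is shown for the 2 GATA genes, for Zfpm1 and Klf1, which had the largest fold changes among the partners, and for Gfi1b, whose pattern over the groups differed from theirs. The windows are from RefSeq (GRCm38.p6), end at the base before the start site except for Klf1, of which the first 201 bases are shown, and are written 5′ to 3′ on the strand of the gene. Of the 10 genes, 8 matched the table, with 12 windows, and Lmo2 and Nfe2 did not. Capitals mark the motifs searched on both strands: the GATA site (the motif AGATAA, the motif AGATAG, the motif TGATAA or the motif TGATAG), the CACCC box bound by KLF factors (CCACACCC, CCACGCCC, CCCCACCC or CCCCGCCC) and the E-box CAGNTG bound by factors of the TAL1 kind.
Gata1 (chrX:7967911-7968160, minus strand): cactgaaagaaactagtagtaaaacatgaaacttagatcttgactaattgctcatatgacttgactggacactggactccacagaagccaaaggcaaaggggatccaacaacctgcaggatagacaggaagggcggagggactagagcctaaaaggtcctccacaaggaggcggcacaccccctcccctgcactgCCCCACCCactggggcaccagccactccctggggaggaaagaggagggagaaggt
Gata2 (chr6:88193641-88193890, plus strand): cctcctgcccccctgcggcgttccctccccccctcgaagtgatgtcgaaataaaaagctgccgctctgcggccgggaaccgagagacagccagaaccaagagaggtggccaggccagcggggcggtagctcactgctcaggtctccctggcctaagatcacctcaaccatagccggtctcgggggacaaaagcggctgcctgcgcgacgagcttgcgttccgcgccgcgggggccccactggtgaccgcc
Zfpm1 (chr8:122281891-122282140, plus strand): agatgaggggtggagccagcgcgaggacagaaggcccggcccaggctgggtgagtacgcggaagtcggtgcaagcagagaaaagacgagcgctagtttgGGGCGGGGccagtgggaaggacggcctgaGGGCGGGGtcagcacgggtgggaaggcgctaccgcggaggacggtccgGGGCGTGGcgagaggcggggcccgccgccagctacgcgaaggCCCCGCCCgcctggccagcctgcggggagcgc
Klf1 (chr8:84901732-84901932, plus strand): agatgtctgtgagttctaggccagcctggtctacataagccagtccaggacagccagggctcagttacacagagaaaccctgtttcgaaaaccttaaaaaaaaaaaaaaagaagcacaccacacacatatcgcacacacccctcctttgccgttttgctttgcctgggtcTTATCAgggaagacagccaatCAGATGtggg
Gfi1b (chr2:28621983-28622232, minus strand): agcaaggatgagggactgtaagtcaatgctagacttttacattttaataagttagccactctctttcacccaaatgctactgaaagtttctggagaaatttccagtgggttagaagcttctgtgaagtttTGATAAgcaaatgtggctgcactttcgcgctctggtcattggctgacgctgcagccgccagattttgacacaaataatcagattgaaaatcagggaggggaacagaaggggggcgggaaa
The Klf1 window holds a GATA site on the minus strand, written here as TTATCA, whose first base lies at position -80 from the start site, and an E-box at -59. The Gfi1b window holds a GATA site at -120. The Gata1 window holds a CACCC box at -55 and no GATA site of the searched kind, the Zfpm1 window holds 4 CACCC boxes and no GATA site, and the Gata2 window holds none of the 3 motifs. The 4 Zfpm1 matches read CCCCGCCC or CCACGCCC, which the search counted as CACCC boxes although neither spells CACCC. Over the 12 windows, 4 held a GATA site, 5 a CACCC box and 3 an E-box. Among all 32851 windows of the table, 26.5% held a GATA site, 27.4% a CACCC box and 44.8% an E-box, so each motif is common.

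Total expected counts per library ran from 12259707 in secondary disease replicate 4 to 39419370 in control spleen replicate 3. Secondary disease replicate 4 stood apart from its group (correlation of log2 CPM with the others at most 0.862), and the doxycycline spleen libraries differed among themselves. Mouse Myh11 was nearly absent (0 to 9 expected counts per library), so the knockdown could not be read from it. Cbfb, the gene of the other fusion partner, had 90.1 to 96.9 CPM (TMM-scaled) in doxycycline marrow and 119 to 139 CPM in control marrow, which takes in the normal allele. It had 117, 54.2 and 119 CPM in doxycycline spleen and 124 to 144 CPM in control spleen, and 137, 133, 127 and 72.2 CPM in secondary disease. Mature erythroid markers, 7 of 8 in the table and none at 0 in any library, summed to 47757 to 60431 CPM in doxycycline marrow and 2198 to 4197 CPM in control marrow. In doxycycline spleen the sum was 5543 CPM in replicate 1, 85965 CPM in replicate 2 and 40781 CPM in replicate 3, and 2826 to 4880 CPM in control spleen. In secondary disease it was 3969 to 6680 CPM. In a bulk sample fewer cells of a type and less RNA per cell cannot be told apart. Whether replicates are different animals is left unsaid in the labels, and p-values here measure only the spread between these samples.

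All 10 genes were detected in every library. Set per transcript length (TPM), the order of the genes differed between groups at its top. In doxycycline marrow the highest means belonged to Gata2 (490.4 TPM; 405 to 632 over 3 libraries) and Gata1 (454 TPM; 438 to 475), which overlapped. In control marrow Gfi1b was highest (449.95 TPM; 363 to 505), and Gata2 was only the fifth of the 10, at 227 TPM. Zfpm1 had the lowest mean in all 5 groups, from 21.9 TPM in control marrow to 104 TPM in doxycycline spleen, where a single library at 246 TPM set the mean. Across groups, the doxycycline marrow libraries lay above those of all other groups for Gata1 and for Gata2, in TPM and in CPM. The order below them depended on the scale, of which CPM was TMM-scaled and TPM was not. In CPM the mean of Gata1 was lowest in secondary disease and control marrow, at 297 and 296 CPM, and that of Gata2 in secondary disease, while in TPM doxycycline spleen was lowest for both, at 279.95 TPM for Gata1 and 167.1 TPM for Gata2, beside 167.3 TPM for Gata2 in secondary disease. The spread over the 16 libraries differed among the genes. Zfpm1 had an SD of 1.04 in log2 CPM, above that of 91.2% of the tested genes, followed by Gata2 with 0.70 and Klf1 with 0.65. Ldb1, the scaffold, varied least, with an SD of 0.19, above that of only 9.30% of the tested genes.

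**Figure D1:**
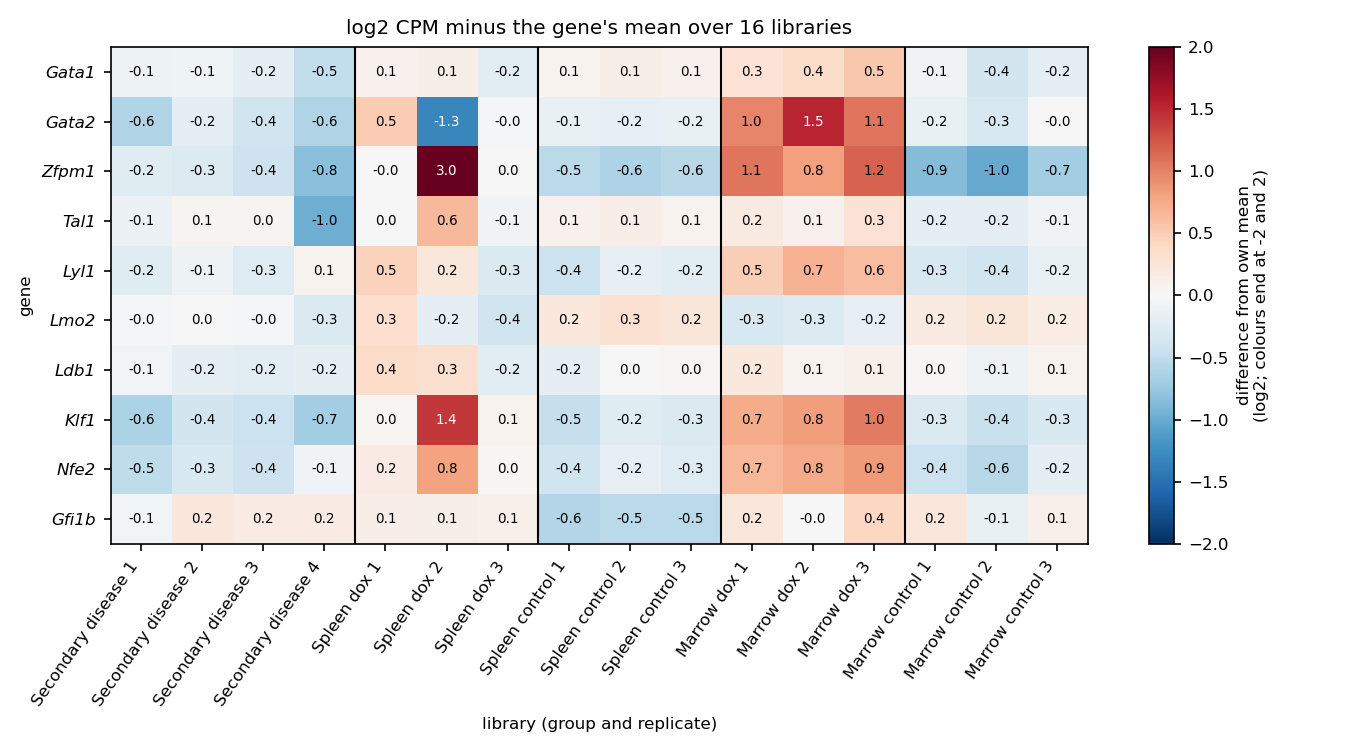
Difference of each of the 10 genes (rows) from its own mean over 16 libraries (columns, by group), on the log2 CPM scale, with red above and blue below that mean. Doxycycline marrow is high for Gata1, Gata2, Zfpm1, Lyl1, Klf1 and Nfe2, and doxycycline spleen replicate 2 holds the highest Zfpm1 and Klf1 and the lowest Gata2.

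In the marrow after 7 days of doxycycline, Gata1, Gata2, Lyl1, Klf1 and Nfe2 rose, between 1.52-fold and 2.57-fold. Of the 10 genes, 5 rose and 0 fell by edgeR, where 3.96% of the 14435 genes tested rose, 2.61% fell and 6.57% changed in either direction. At an unadjusted p under 0.05 there were 7 of the 10, and 6 passed the Wald test of DESeq2, which gave Zfpm1 no adjusted p in any comparison. The Wald test passed 13.8% of all genes tested. For counts at an unadjusted p no share over all genes was taken, here or below. The median log2 fold change of the 10 was 0.75, against -0.02 over all genes tested. The CPM of 7 of the 10 lay above every control library and that of 1 below every control library, which was so for 23.1% and 24.6% of the genes tested.

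Gata1 (ENSMUSG00000031162, chrX:7959260-7978071 in GRCm38, minus strand), the master regulator of red cells and megakaryocytes, had 417, 438 and 498 CPM in doxycycline marrow and 323, 265 and 300.2 CPM in control marrow. The groups did not overlap, and the difference was a log2 fold change of 0.61 ± 0.14 (approximate SE; edgeR adjusted p = 0.0246). Gata2 (ENSMUSG00000015053, chr6:88193891-88207032, plus strand) had 577, 844 and 616 CPM in doxycycline marrow and 264, 235 and 293 CPM in control marrow. All 3 doxycycline libraries were above every control, with replicate 2 the highest. The log2 fold change was 1.36 ± 0.32 (adjusted p = 0.0249). Zfpm1 (ENSMUSG00000049577, chr8:122282141-122337251, plus strand), the gene of FOG1, had 201, 169 and 217 CPM in doxycycline marrow and 52.3, 47.6 and 59.0 CPM in control marrow. It had the largest log2 fold change of the 10, 1.89 ± 0.59, and groups that did not overlap, but did not pass in the model over all 16 libraries (adjusted p = 0.0715), where its spread takes in the doxycycline spleen libraries. With only the 6 marrow libraries in the model its log2 fold change was 1.90 with an adjusted p of 7.78e-07, and over the alternatives run the adjusted p ran up to 0.227.

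Of the factors that bind E-boxes, Lyl1 (ENSMUSG00000034041, chr8:84701457-84704715, plus strand), a close relative of Tal1, had 210.4, 243 and 229 CPM in doxycycline marrow and 119, 114 and 135 CPM in control marrow. The groups were well apart, with a log2 fold change of 0.89 ± 0.17 (adjusted p = 0.0123). Tal1 (ENSMUSG00000028717, chr4:115056426-115071755, plus strand) had 388, 362 and 416 CPM in doxycycline marrow and 298, 301 and 326 CPM in control marrow. Its doxycycline libraries were also all above the controls, but the gap was small and the log2 fold change of 0.33 ± 0.24 did not pass (adjusted p = 0.476). Lmo2 (ENSMUSG00000032698, chr2:103957986-103981878, plus strand), the bridging protein, had 182, 188 and 204 CPM in doxycycline marrow and 259.8, 272 and 255 CPM in control marrow. It was the one gene of the 10 with every doxycycline library below every control library, at a log2 fold change of -0.45 ± 0.16 (adjusted p = 0.111). Ldb1 (ENSMUSG00000025223, chr19:46031570-46045214, minus strand), the dimerising scaffold, had 501, 455 and 467 CPM in doxycycline marrow and 441, 406 and 455 CPM in control marrow, groups that overlapped, and the log2 fold change was 0.13 ± 0.15 (adjusted p = 0.696). Ldb1 overlaps Pprc1 on the opposite strand in the annotation, with 967 to 5042 expected counts per library for Pprc1, and Lyl1 likewise overlaps Nfix, with 202 to 788. Zfpm1 overlaps Gm20388 on its own strand, with 0 to 296 expected counts. The sources used here do not say whether strand was used in counting.

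Of the lineage factors, Klf1 (ENSMUSG00000054191, chr8:84901928-84905291, plus strand), the activator of adult globin and red cell membrane genes, had 226, 241 and 277 CPM in doxycycline marrow and 109, 98.7 and 108 CPM in control marrow. Each doxycycline library held more than any control, and the log2 fold change was 1.23 ± 0.28 (adjusted p = 0.0234). Nfe2 (ENSMUSG00000058794, chr15:103248212-103258403, minus strand), which pairs with small MAF proteins at globin and platelet genes, had 363, 390.0 and 415 CPM in doxycycline marrow and 171, 156 and 202 CPM in control marrow. It was the firmest of the marrow changes, at a log2 fold change of 1.14 ± 0.19 (adjusted p = 0.00667). Gfi1b (ENSMUSG00000026815, chr2:28609450-28621982, minus strand), a repressor of transcription that acts within the red cell and megakaryocyte lineages, had 532, 449 and 601 CPM in doxycycline marrow and 531, 409 and 484 CPM in control marrow, groups that overlapped (log2 fold change 0.15 ± 0.14, adjusted p = 0.591).

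The number of marrow calls fell whichever of the 6 marrow libraries was left out. These fits also tested more genes, 14889 to 15045 in place of 14435. With all libraries and no filter on low counts, 2 of the 10 passed, as did 1.23% of all genes tested. Without doxycycline replicate 1, 2 or 3 there were 2, 1 and 2 calls among the 10 genes, and without control replicate 1, 2 or 3 there were 1, 0 and 2, with Nfe2 called in 5 and Lyl1 in 3 of these 6 fits. Calls over all genes tested were also few, at 1.27%, 0.746% and 1.19% without those doxycycline replicates. Without those control replicates they were 1.24%, 0.154% and 1.55%, where 6.57% passed with all libraries. With only the 6 marrow libraries in the model 8 of the 10 genes passed, as did 36.6% of all genes tested, and without secondary disease replicate 4, which enters the shared spread, 6 of the 10 passed, as did 17% of all genes tested. Over all alternatives the log2 fold change was 0.51 to 0.69 for Gata1, 1.18 to 1.44 for Gata2 and 1.15 to 1.27 for Klf1. The mature erythroid markers given above moved with the group in the same libraries. Neutrophil markers, 10 of 10 in the table and none at 0 in these libraries, summed to 325 to 660.5 CPM in doxycycline marrow and 885 to 1327 CPM in control marrow. The part of either in these changes was not tested.

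**Figure D2:**
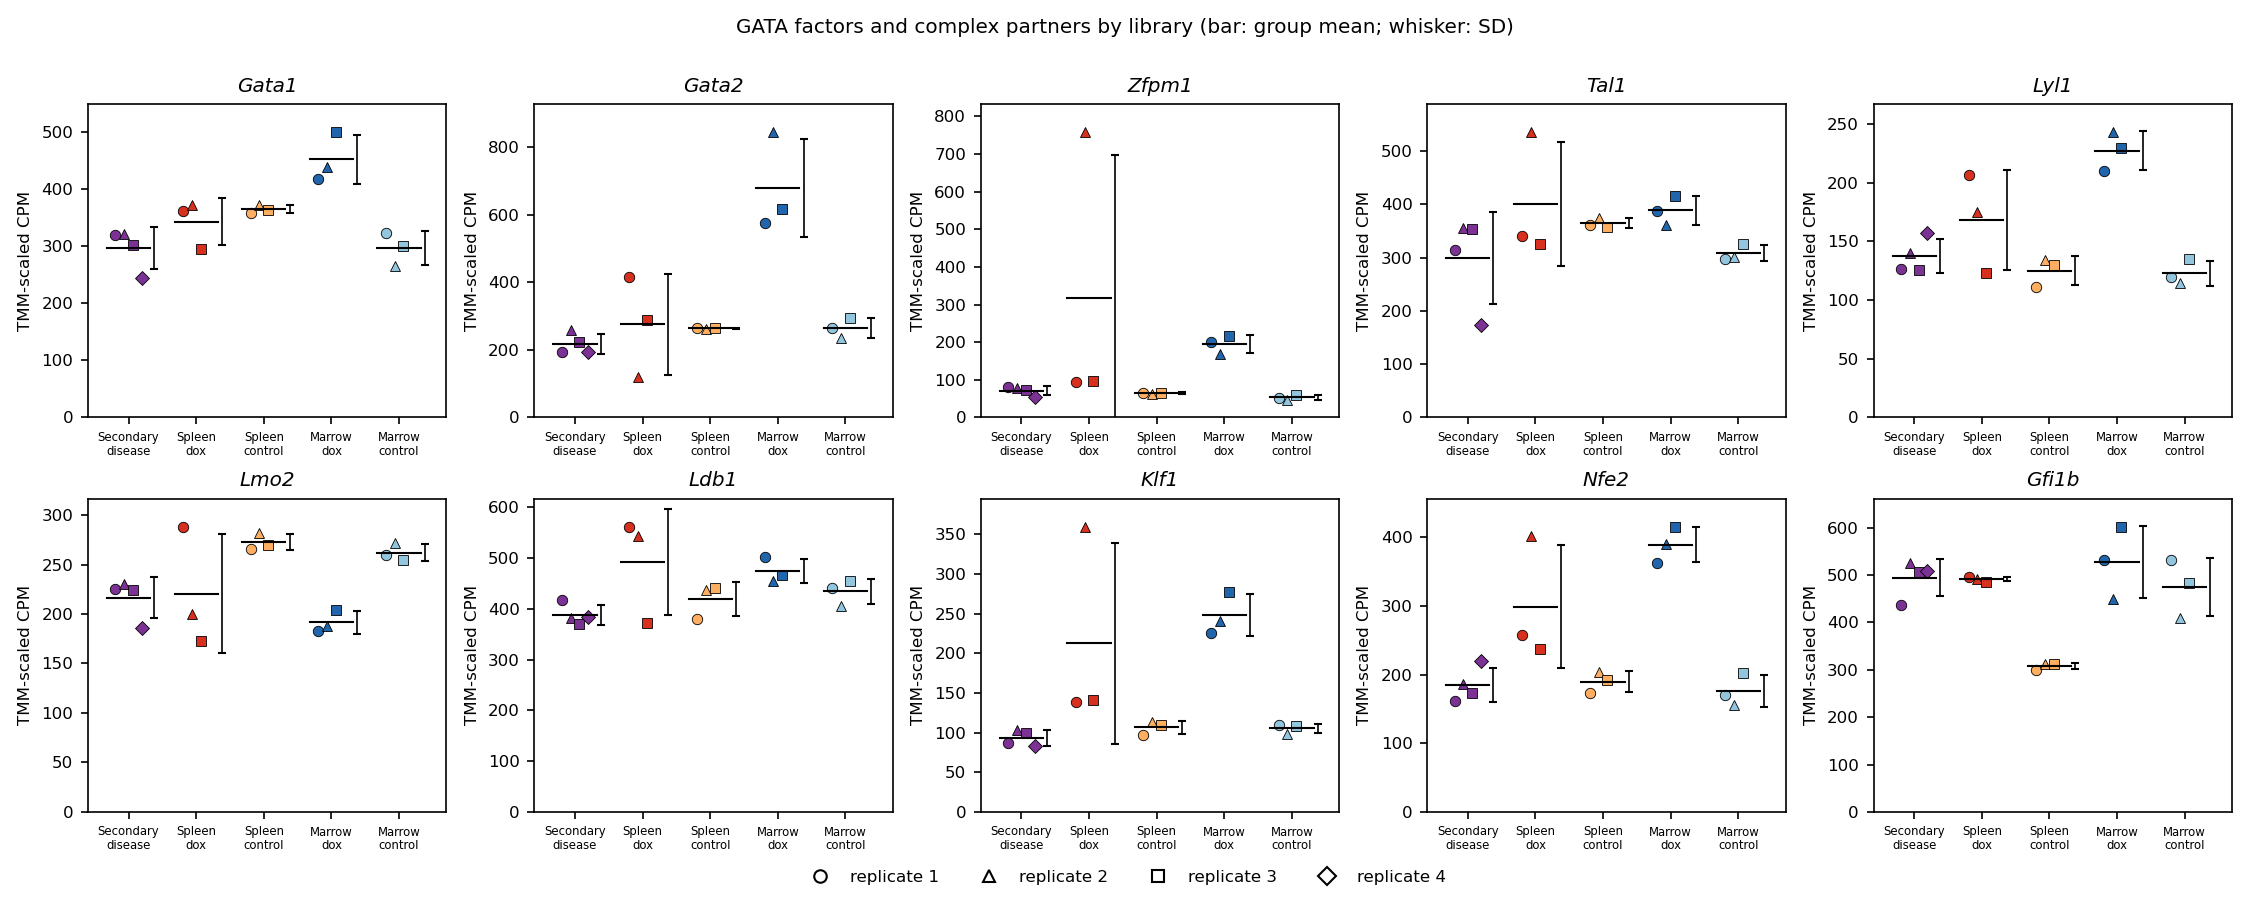
TMM-scaled CPM (y axis, from 0) of the 10 genes in each library, by group, with the group mean (bar) and SD (whisker; n = 4 in secondary disease and 3 in the other groups; the Zfpm1 whisker of doxycycline spleen runs below 0 and is clipped at the axis). Doxycycline marrow lies wholly above control marrow for 7 of the 10 genes, and 1 doxycycline spleen library at 757 CPM sets the mean of Zfpm1 there.

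In spleen, the same 7 days of doxycycline left Gata1 and Gata2 without a call, and Gfi1b was the one gene of the 10 that rose. That is 1 of 10 higher, where 0.568% of the genes tested rose, 0.173% fell and 0.741% changed in either direction, while 5 of the 10 had an unadjusted p under 0.05 and 3 passed the Wald test of DESeq2. The Wald test passed 4.84% of all genes tested. The median log2 fold change of the 10 was 0.33, against 0.02 over all genes tested. Zfpm1, Klf1, Nfe2 and Gfi1b had no overlap with the controls and lay above them, 4 of 10, which held for 9.34% of the genes tested, and 0 of 10 lay below them, which held for 10.7%.

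Gfi1b had 495, 491 and 486 CPM in doxycycline spleen and 300.1, 311 and 313 CPM in control spleen. All 3 doxycycline libraries were close to each other and well above the controls, at a log2 fold change of 0.67 ± 0.14 (adjusted p = 0.0451). It was called in 5 of the 12 alternatives, whose adjusted p ran up to 0.358, with a log2 fold change of 0.66 to 0.70. Without control spleen replicate 1, 2 or 3, and without doxycycline spleen replicate 2 or 3, it was not called (adjusted p = 0.0728 without doxycycline spleen replicate 2). Without doxycycline spleen replicate 1, 5 of the 10 genes passed (Zfpm1, Lmo2, Klf1, Nfe2 and Gfi1b), as did 9.13% of all genes tested. Without secondary disease replicate 4, 3 did (Zfpm1, Nfe2 and Gfi1b), as did 5.37% of all genes tested.

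The other 3 genes above the controls had their highest spleen value in 1 library, replicate 2. Zfpm1 had 95.1, 757 and 96.2 CPM in doxycycline spleen replicates 1, 2 and 3 and 65.9, 62.3 and 65.1 CPM in control spleen. Replicate 2 was far above every other library, while replicates 1 and 3 were modestly above the controls. The log2 fold change of 2.29 ± 0.60 did not pass (adjusted p = 0.0914), and without replicate 2 it was 0.57 (adjusted p = 0.195, against 0.00581 to 0.452 over the alternatives). Klf1 had 138, 359 and 141 CPM in doxycycline spleen and 97.1, 113 and 109.7 CPM in control spleen, with a log2 fold change of 1.00 ± 0.28 (adjusted p = 0.120) and 0.39 without replicate 2. Nfe2 had 258, 402 and 237 CPM in doxycycline spleen and 173, 204 and 192 CPM in control spleen, with a log2 fold change of 0.65 ± 0.19 (adjusted p = 0.124) and 0.38 without replicate 2. Tal1 had its highest value of all 16 libraries in replicate 2, at 535 CPM, beside 341 and 326 CPM in the other doxycycline spleen libraries and 362, 375 and 357 CPM in control spleen.

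The GATA genes themselves split in that library. Gata2 had 417, 119 and 289.7 CPM in doxycycline spleen and 265, 262 and 265 CPM in control spleen. Replicate 1 was above and replicate 2 far below the controls, so the log2 fold change of 0.06 ± 0.31 (adjusted p = 0.973) averages libraries on both sides of the controls. Gata1 had 362, 371 and 295 CPM in doxycycline spleen and 358, 372 and 363 CPM in control spleen, which overlapped (log2 fold change -0.09 ± 0.14, adjusted p = 0.889). On the TPM scale, with a length estimated for each library and no TMM scaling, the groups did not overlap. Gata1 had 313, 263 and 263 TPM in doxycycline spleen and 408, 382 and 407 TPM in control spleen. Other genes of the 10 also had fewer TPM for their CPM there, so this gap was not particular to Gata1. Lmo2 had 288 TPM at 288 CPM in doxycycline spleen replicate 1 and 321 TPM at 266 CPM in control spleen replicate 1. Lyl1 had 207, 175 and 123 CPM in doxycycline spleen and 111, 135 and 130.2 CPM in control spleen, again overlapping (log2 fold change 0.43 ± 0.17, adjusted p = 0.294). Neither Lmo2 (173 to 288 CPM in doxycycline spleen, 266 to 282 CPM in control spleen; adjusted p = 0.486) nor Ldb1 (372 to 561 CPM in doxycycline spleen, 379.98 to 439.8 CPM in control spleen; adjusted p = 0.593) passed. Replicate 2 also held 27150 CPM of the β-globin gene Hbb-bs, against 583 and 12217 CPM in replicates 1 and 3, and 1.36 CPM of Erg, against 72.4 and 40.4 CPM. The megakaryocyte markers, 6 of 6 in the table, summed to 41.3 CPM in replicate 2, against 788 and 349.7 CPM in replicates 1 and 3. The mast cell and basophil markers, 9 of 9 in the table, summed to 154 CPM in replicate 2, where Cma1, Fcer1a, Mcpt8, Prss34 and Tpsb2 were at 0, against 1059 and 1771 CPM. Their part in the levels of the 10 genes was not tested.

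Averaged over both tissues, Zfpm1, Lyl1, Klf1, Nfe2 and Gfi1b rose and Lmo2 fell with doxycycline. That is 5 of 10 higher and 1 of 10 lower, where 6.37% of the genes tested rose, 3.73% fell and 10.1% changed in either direction. The log2 fold change was 2.09 ± 0.42 for Zfpm1 (adjusted p = 0.00747), 1.12 ± 0.20 for Klf1 (adjusted p = 0.00444), 0.90 ± 0.13 for Nfe2 (adjusted p = 0.00188) and 0.66 ± 0.12 for Lyl1 (adjusted p = 0.00477). These 4 genes passed in each alternative that gave an adjusted p, 17 for Zfpm1 and 18 for the others, and leaving out doxycycline spleen replicate 2 gave 1.23 for Zfpm1 (adjusted p = 0.000157). Gfi1b rose by 0.41 ± 0.10 (adjusted p = 0.0152) and passed in 14 of 18 alternatives. Lmo2 fell by 0.38 ± 0.11 on the log2 scale, at an adjusted p of 0.0498 that passed in 6 of 18 alternatives. Gata1 (0.26 ± 0.10, adjusted p = 0.122) and Gata2 (0.71 ± 0.22, adjusted p = 0.0583) did not pass, although without doxycycline spleen replicate 2 Gata2 stood at 0.89 (adjusted p = 0.00108). Neither did Tal1 (0.24 ± 0.17, adjusted p = 0.442) nor Ldb1 (0.18 ± 0.10, adjusted p = 0.319).

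Whether doxycycline acted differently in the spleen and the marrow was tested as the difference of the 2 fold changes. By edgeR 0 of the 10 genes passed, where 0.0485% of the genes tested did (0.0277% higher and 0.0208% lower), while 3 had an unadjusted p under 0.05 and 1 (Gata1) passed the Wald test of DESeq2. The Wald test passed 1.73% of all genes tested. The difference, spleen minus marrow, was -0.70 ± 0.20 on the log2 scale for Gata1 (adjusted p = 0.276), -1.30 ± 0.44 for Gata2 (adjusted p = 0.410) and 0.52 ± 0.19 for Gfi1b (adjusted p = 0.457). For Zfpm1 it was 0.41 ± 0.81 with all libraries. Without doxycycline spleen replicate 2 it turned to -1.32 and passed (adjusted p = 0.00676), and Klf1 passed at -0.85 (adjusted p = 0.0184, against -0.24 ± 0.40 with all libraries), where 4.32% of all genes tested passed. Without that library the fold change of both genes was thus smaller in the spleen than in the marrow, whereas with it the Zfpm1 difference had the opposite sign. With all libraries the difference was -0.49 ± 0.27 for Nfe2, -0.46 ± 0.24 for Lyl1, -0.20 ± 0.33 for Tal1, 0.15 ± 0.23 for Lmo2 and 0.10 ± 0.21 for Ldb1.

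**Figure D3:**
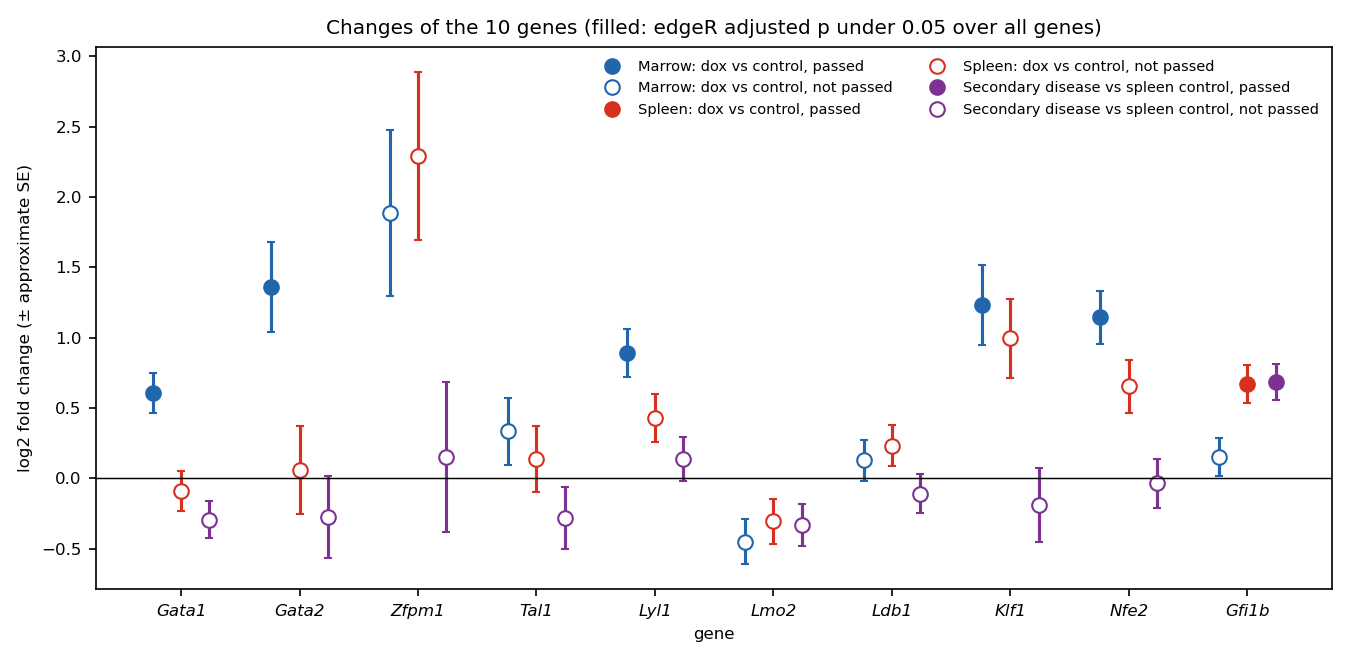
Log2 fold change (y axis) with approximate SE (whisker) of each of the 10 genes (x axis) for doxycycline against control in marrow and in spleen and for secondary disease against control spleen, with filled points for an edgeR adjusted p under 0.05. The 5 filled marrow points are Gata1, Gata2, Lyl1, Klf1 and Nfe2, and the filled spleen and secondary disease points are both Gfi1b.

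The ratio of Gata1 to Gata2, from TPM so that both genes are set per length, was lower in doxycycline marrow than in control marrow in every library. The ratio was 1.04, 0.693 and 1.17 in doxycycline marrow (0.968 ± 0.248, SD, n = 3) and 1.74, 1.39 and 1.19 in control marrow (1.44 ± 0.279). The highest doxycycline library was just below the lowest control library, so the groups did not overlap. The mean log2 ratio differed by -0.59, with p = 0.1 in the exact two-sided permutation test, the smallest that 3 against 3 libraries allow, and 0.233 adjusted over 7 comparisons. Both genes rose in the marrow, and the fold change of Gata2 was the larger.

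In doxycycline spleen the ratio was 1.19, 3.56 and 1.61, and in control spleen 1.62, 1.76 and 1.59. Replicate 2, with the lowest Gata2 of all libraries, had the highest ratio of the 16, while replicate 1 was below the controls. The mean log2 difference was 0.19 (exact permutation p = 0.9), and without replicate 2 it turned to -0.26 (exact permutation p = 0.2). Averaged over both tissues the difference was -0.20 (exact permutation p = 0.515 over 400 arrangements, adjusted p = 0.721), and without that library -0.43 (p = 0.01, against 0.01 to 0.905 over the alternatives). Secondary disease had ratios of 1.84, 1.74, 2.09 and 2.10, and its lowest library was just below the highest control spleen library at 1.76. The mean log2 difference to control spleen was 0.22 (exact permutation p = 0.0857, adjusted p = 0.233), and -0.02 when the ratio was taken from expected counts, which leave out the gene length estimated for each library. Against doxycycline spleen the difference was 0.03 (exact permutation p = 0.971). Doxycycline spleen against doxycycline marrow differed by 1.00 (exact permutation p = 0.1, the smallest possible), and control spleen against control marrow by 0.22 (exact permutation p = 0.3).

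**Figure D4:**
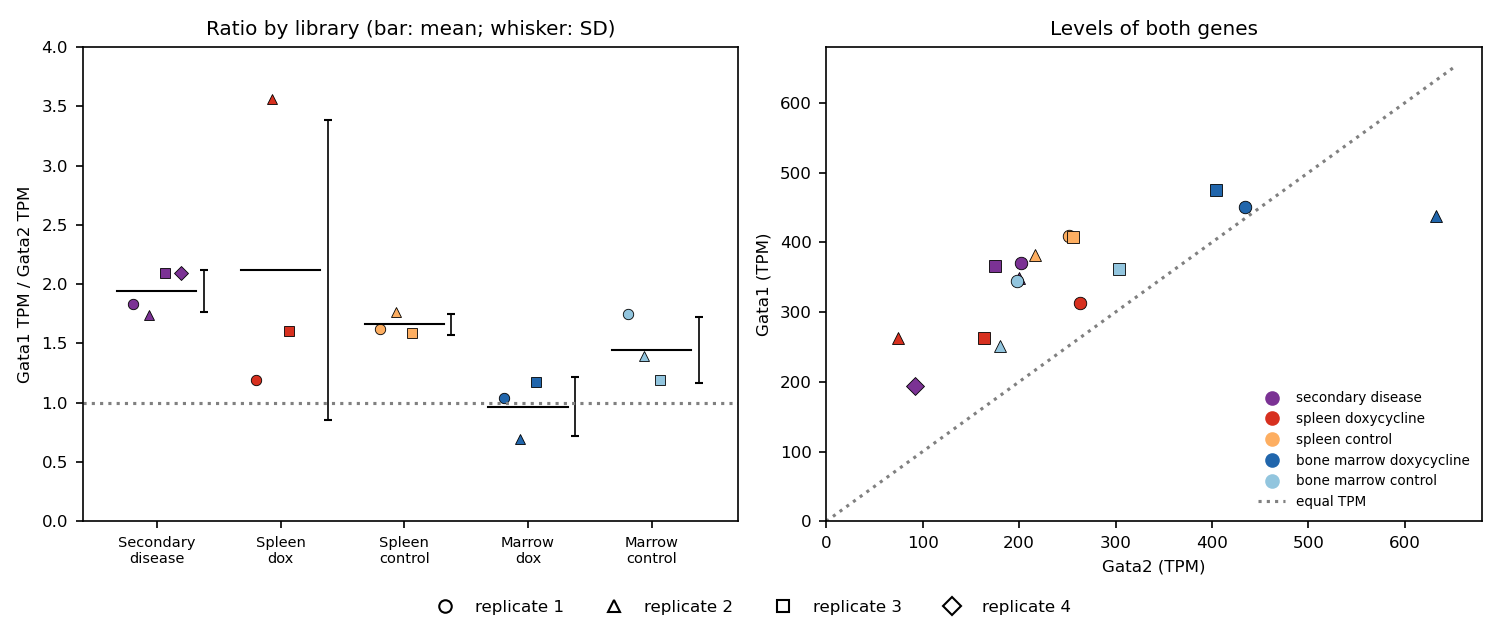
Left, ratio of Gata1 to Gata2 TPM (y axis) in each library by group, with mean (bar) and SD (whisker), where the dotted line marks equal TPM. Right, Gata1 against Gata2 in TPM for the same libraries. Doxycycline marrow replicate 2 lies below the line of equal TPM (ratio 0.693), and replicates 1 and 3 lie above it (1.04 and 1.17). Doxycycline spleen replicate 2 has the lowest Gata2, at 73.9 TPM.

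Between the tissues, Gfi1b in control libraries and Gata2 in doxycycline libraries had the clearest differences, and neither passed by edgeR. In control spleen against control marrow 0 of the 10 passed by edgeR, where 0.187% of the genes tested did (0.0762% higher and 0.111% lower), with 1 at an unadjusted p under 0.05 and 1 by DESeq2, Gfi1b in both. DESeq2 passed 2.11% of all genes tested in this comparison. Gfi1b was lower in control spleen, with the 300.1 to 313 CPM given above, than in control marrow, with 409 to 531 CPM, and the groups did not overlap (log2 fold change -0.62 ± 0.14, adjusted p = 0.0885; 0.000195 to 0.495 over the alternatives). Neutrophil markers summed to 53.8 to 169.6 CPM in control spleen and 885 to 1327 CPM in control marrow, and their part in this was not tested. Gata1 (0.30 ± 0.14) was higher in each control spleen library than in any control marrow library and did not pass (adjusted p = 0.738). In all, 3 of the 10 (Gata1, Zfpm1 and Tal1) lay above every control marrow library and 1 below, which held for 16.3% and 16.5% of the genes tested. The log2 fold change was 0.28 ± 0.57 for Zfpm1, 0.24 ± 0.24 for Tal1 and 0.11 ± 0.19 for Nfe2, and lay between -0.05 and 0.06 for Lyl1, Lmo2, Ldb1 and Klf1. Gata2 was level in both, at 264 ± 1.90 CPM in control spleen and 264 ± 28.9 CPM in control marrow (SD, n = 3 each), with far less spread in the spleen. In doxycycline spleen against doxycycline marrow 0 of the 10 passed as well, where 0.0485% of the genes tested did, with 3 at an unadjusted p under 0.05. By DESeq2 1 passed, as did 3.03% of all genes tested. The gene passed by DESeq2 was Gata2, lower in all 3 spleen libraries than in any marrow library, at an edgeR log2 fold change of -1.30 ± 0.32 (adjusted p = 0.148). Of the 10, 3 (Gata1, Gata2 and Lyl1) lay below every doxycycline marrow library and 0 above, which held for 9.5% and 5.98% of the genes tested. Without doxycycline spleen replicate 2 Gata2 stood at -0.94 and passed (adjusted p = 0.0141), as did Zfpm1 at -1.03, Klf1 at -0.83 and Nfe2 at -0.65, and 7.18% of all genes tested. With all libraries Zfpm1 stood at 0.69 ± 0.57, Nfe2 at -0.38 ± 0.19, Klf1 at -0.22 ± 0.28 and Lmo2 at 0.20 ± 0.16. Gata1 (-0.40 ± 0.14) and Lyl1 (-0.44 ± 0.17) did not pass, nor did Tal1 (0.05 ± 0.24), Ldb1 (0.05 ± 0.15) or Gfi1b (-0.10 ± 0.14).

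Gfi1b was the one gene of the 10 called in secondary disease against control spleen. In this comparison 1 of the 10 rose, where 0.748% of the genes tested rose, 1.28% fell and 2.03% changed in either direction, and 3 of the 10 had an unadjusted p under 0.05. Gfi1b had 437, 524, 507 and 509 CPM in secondary disease and 300.1, 311 and 313 CPM in control spleen. All 4 libraries were above the controls, which held for 1 of the 10 genes and 8.85% of the genes tested, at a log2 fold change of 0.68 ± 0.13 (adjusted p = 0.0151), which passed in 7 of 12 alternatives. It was not called without control spleen replicate 1, 2 or 3 or secondary disease replicate 2, and without secondary disease replicate 4 it was 0.67 (adjusted p = 0.0107). Doxycycline spleen and secondary disease share these control libraries, and Gfi1b had 437 to 524 CPM in secondary disease and 486 to 495 CPM in doxycycline spleen. The log2 fold change of secondary disease over doxycycline spleen was 0.01 ± 0.13 (adjusted p = 0.979).

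The other genes had values near or below control spleen. Gata1 had 319, 321, 302 and 244 CPM in secondary disease, each below the lowest control spleen library at 358 CPM (log2 fold change -0.30 ± 0.13, adjusted p = 0.304). Gata2 had 194, 258, 224 and 194 CPM in secondary disease and 265, 262 and 265 CPM in control spleen, also without overlap (-0.28 ± 0.29, adjusted p = 0.750). Lmo2 had 225, 230.4, 224 and 186 CPM in secondary disease, below the control spleen libraries at 266 to 282 CPM (-0.33 ± 0.15, adjusted p = 0.313). Tal1 stood at -0.28 ± 0.22, Klf1 at -0.19 ± 0.26, Zfpm1 at 0.15 ± 0.54, Lyl1 at 0.14 ± 0.16, Ldb1 at -0.11 ± 0.14 and Nfe2 at -0.04 ± 0.18, and none of these passed. With Tal1, 4 of the 10 genes lay below every control spleen library in secondary disease, where 12.4% of the genes tested did. Replicate 4, the shallowest library, had the lowest Gata1, Zfpm1, Tal1, Lmo2 and Klf1 of its group, with Tal1 at 174 CPM beside 314, 356 and 353 CPM in the others, and without it Gata1 stood at -0.21 and Lmo2 at -0.27 against control spleen.

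Against doxycycline spleen, Klf1 fell in secondary disease, 1 of 10, where 0.707% of the genes tested fell, 0.222% rose and 0.928% changed in either direction. It had 86.6, 103.9, 99.8 and 83.4 CPM in secondary disease and 138, 359 and 141 CPM in doxycycline spleen, without overlap, at a log2 fold change of -1.19 ± 0.26 (adjusted p = 0.0490). Without doxycycline spleen replicate 2 it was -0.58 (adjusted p = 0.0799; 0.00155 to 0.887 over the alternatives), and without secondary disease replicate 4 it was -1.14 (adjusted p = 0.0394). Zfpm1 (-2.14 ± 0.54, adjusted p = 0.0706) and Nfe2 (-0.69 ± 0.18, adjusted p = 0.0723) were lower in all 4 secondary disease libraries as well and did not pass, and without that library both stood at -0.42. The remaining genes ran from -0.42 ± 0.22 for Tal1 to 0.01 ± 0.13 for Gfi1b, with Ldb1 at -0.34 ± 0.14, Gata2 at -0.34 ± 0.29, Lyl1 at -0.29 ± 0.16, Gata1 at -0.21 ± 0.13 and Lmo2 at -0.03 ± 0.15, and did not pass. Klf1, Zfpm1 and Nfe2, 3 of the 10, lay below every doxycycline spleen library and 0 above, which held for 4.16% and 3.08% of the genes tested.

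Among the other genes of the pathway, taken from lists chosen with earlier results of these data known, more erythroid targets than listed cofactors passed in doxycycline marrow. Of 31 tested erythroid targets of GATA1 and KLF1, 22 rose and 0 fell in doxycycline marrow, with a median log2 fold change of 2.04 against -0.02 over all genes tested. Of all genes tested, 3.96% rose and 2.61% fell there. Hba-a1 rose by 3.22 ± 0.50 (adjusted p = 0.00552), Hba-a2 by 4.32 ± 0.70 (adjusted p = 0.00566) and Bcl2l1, a survival gene of red cell precursors, by 1.34 ± 0.22 (adjusted p = 0.00604). Hba-a1 and Hba-a2 are near-identical copies, and how their reads were divided is uncertain. In doxycycline spleen 8 of the 31 rose and 0 fell, with a median of 2.10 against 0.02 over all genes tested, among them the haem synthesis gene Uros (2.68 ± 0.50, adjusted p = 0.0425). Of all genes tested, 0.568% rose and 0.173% fell in the spleen. Without doxycycline spleen replicate 2, 0 of the 31 passed, where 0.248% of all genes tested did, and the median was 0.83. With all libraries 26 had an unadjusted p under 0.05, a count for which no share over all genes was taken. The Wald test of DESeq2 passed 23 of the 31 and 4.84% of all genes tested. Without secondary disease replicate 4, 20 passed, as did 5.37% of all genes tested. In secondary disease against doxycycline spleen 10 of the 31 fell, with a median of -1.96 against -0.01, where 0.707% of all genes tested fell. In this comparison 1 fell without doxycycline spleen replicate 2, where 0.234% of all genes tested passed in either direction.

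Of 23 tested genes listed as cofactors of the complex, 1 rose and 2 fell in doxycycline marrow, with a median of -0.05. Of all genes tested, 3.96% rose and 2.61% fell there. The list is broad, and the 2 that fell were Erg, of an ETS factor, and Id2, of an inhibitor of E proteins. With so few genes called, the counts of this list and of the next 2 lists are given as a description. Ssbp3, which stabilises LDB1, had 249 ± 6.47 CPM in doxycycline marrow and 133 ± 15.0 CPM in control marrow (log2 fold change 0.90 ± 0.20, adjusted p = 0.0194). The ETS factor gene Erg fell to 7.84 ± 1.88 CPM in doxycycline marrow, against 78.3 ± 7.53 CPM in control marrow (-3.32 ± 0.87, adjusted p = 0.0377), and Id2, an inhibitor of E proteins, fell by 2.39 ± 0.64 (adjusted p = 0.0414). Of 8 partners and relatives of NFE2, 1 rose, the small MAF gene Mafg, with 227 ± 23.2 CPM in doxycycline marrow and 92.7 ± 14.8 CPM in control marrow (1.29 ± 0.25, adjusted p = 0.0128). Mafk had 0.64 ± 0.18 and did not pass (adjusted p = 0.0514). Of 21 other regulators 2 rose, Klf3 (2.38 ± 0.52, adjusted p = 0.0188) and E2f2 (1.29 ± 0.36, adjusted p = 0.0476). In doxycycline spleen 0 of the 23 listed cofactors, 0 of the 8 NFE2 partners and 0 of the 21 regulators passed by edgeR, and 0, 0 and 2 by DESeq2. At an unadjusted p under 0.05 there were 3, 1 and 3, with no share over all genes taken. There edgeR passed 0.741% of all genes tested and DESeq2 4.84%.

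Of 10 tested targets of GATA1 in megakaryocytes, 0 rose and 3 fell in doxycycline marrow, with a median of -0.79, where 2.61% of all genes tested fell: Gp1bb (-6.29 ± 1.18, adjusted p = 0.0115), Rab27b (-2.64 ± 0.63, adjusted p = 0.0263) and Treml1 (-4.11 ± 1.01, adjusted p = 0.0297). Gp1bb had a mean of 0.236 CPM in doxycycline marrow, near the floor, and 18.9 CPM in control marrow. The megakaryocyte markers summed to 136 to 168 CPM in doxycycline marrow and 381 to 488 CPM in control marrow, and their part in these falls was not tested. In doxycycline spleen 0 of the 10 rose and 1 fell, Itgb3 (-3.00 ± 0.64, adjusted p = 0.0491), with a median of 0.19, where 0.173% of all genes tested fell. Itgb3 was low, at 0.825 CPM in doxycycline spleen and 6.68 CPM in control spleen. The difference, spleen minus marrow, had a median of 1.66 and no call by edgeR, with 4 at an unadjusted p under 0.05. By DESeq2 2 passed, as did 1.73% of all genes tested. By edgeR the difference was 6.88 ± 1.45 for Gp1bb (adjusted p = 0.104) and 4.92 ± 1.32 for Treml1 (adjusted p = 0.225). The doxycycline spleen libraries varied widely for both, at 12.0 ± 16.5 CPM for Gp1bb and 34.5 ± 38.5 CPM for Treml1 (SD). Averaged over both tissues 2 rose and 3 fell, with a median of -0.92, where 6.37% of all genes tested rose and 3.73% fell. Of 14 genes bound by GATA2 in progenitors and mast cells, Samd14 rose (0.87 ± 0.20, adjusted p = 0.0235), Fcer1a fell (-4.25 ± 1.12, adjusted p = 0.0376) and 12 did not pass, with a median of -0.50, in the marrow where Gata2 itself rose. There 3.96% of all genes tested rose and 2.61% fell. Fcer1a was near the floor as well, at 0.296 CPM in doxycycline marrow and 5.67 CPM in control marrow.

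**Figure D5:**
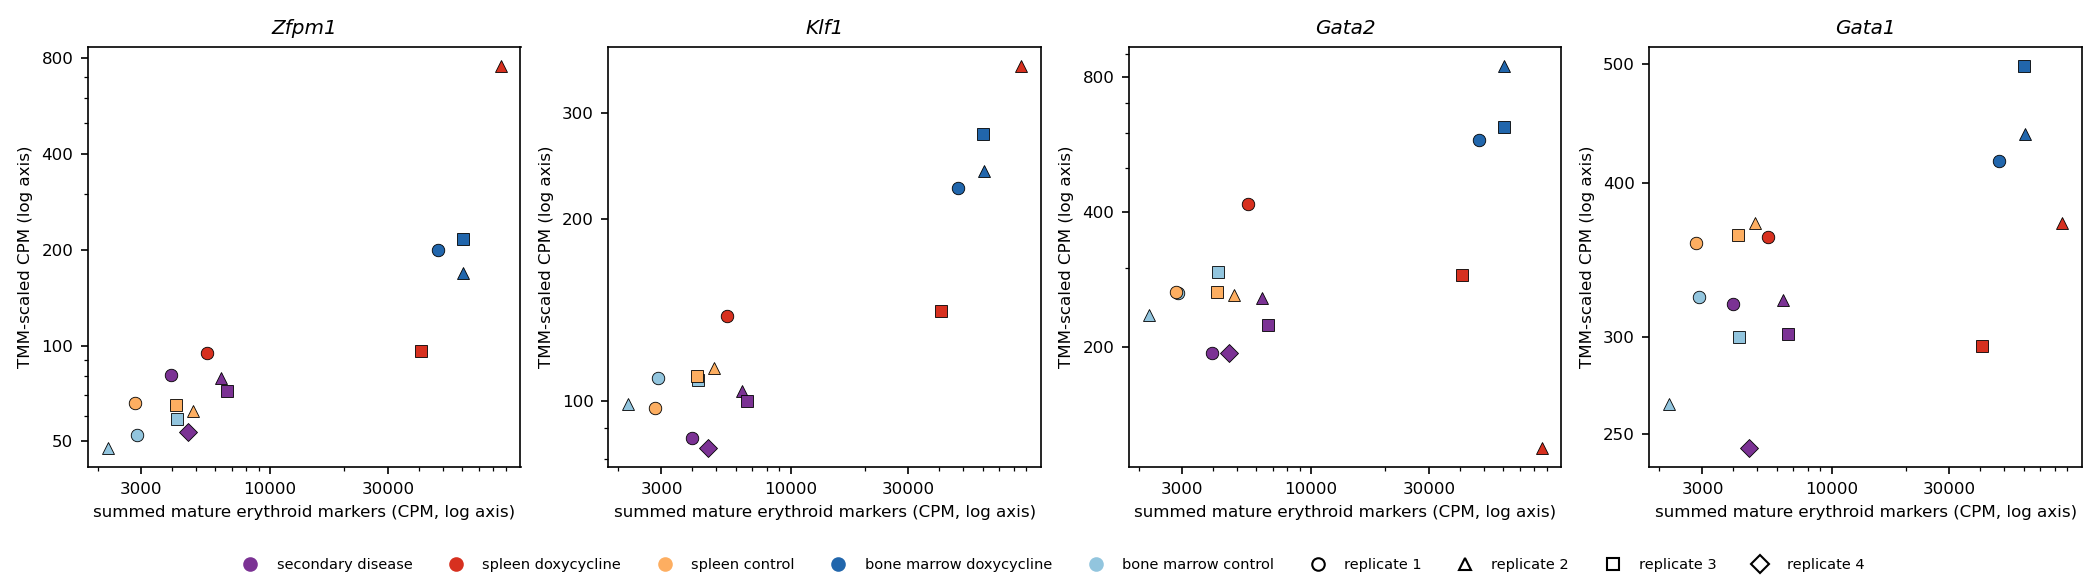
CPM of Zfpm1, Klf1, Gata2 and Gata1 (y axes, log scale) against the summed CPM of 7 mature erythroid markers (x axes, log scale) in 16 libraries. Doxycycline marrow and doxycycline spleen replicates 2 and 3 share high erythroid sums of 40781 to 85965 CPM, but Gata2 runs from 119 to 844 CPM among them.

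Libraries with a high erythroid sum differed in their levels of Zfpm1, Klf1 and Gata2. Doxycycline spleen replicate 3, with 40781 CPM of erythroid markers, had 96.2 CPM of Zfpm1 and 141 CPM of Klf1, close to replicate 1 with 5543 CPM of markers and 95.1 and 138 CPM. Doxycycline marrow replicate 1, with 47757 CPM of markers, had 201 and 226 CPM of these genes. Gata2 was highest in doxycycline marrow replicate 2 and lowest in doxycycline spleen replicate 2, at 844 and 119 CPM, with erythroid sums of 60431 and 85965 CPM.

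The patterns of the genes over the 16 libraries were compared by the root mean square difference of their log2 CPM after each gene's own mean was subtracted, as a description. The measure is not scaled to each gene's own spread, so genes that vary little lie close for that reason alone. The closest of the 10 genes to each other were Gata1 and Ldb1 (0.22), Lyl1 and Nfe2 (0.23), Gata1 and Tal1 (0.23) and Klf1 and Nfe2 (0.24). Gata1 and Ldb1 both varied little, with SDs of 0.27 and 0.19 in log2 CPM. Among 8720 other genes (average log2 CPM from 3 upward), the nearest to Gata1 were Uba1 (0.11), Mfsd11, Slc7a7, Poc1b and Mecr (0.12). The nearest to Gata2 were Rarres1 (0.33), Itpr2, Samd13, Grb10 and Pnrc1 (0.39). Gata2 varied more than Gata1 (SD 0.70 and 0.27), so the distances of the 2 sets cannot be compared.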

How the data were processed

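Libraries were made from oligo-dT selected RNA with the NEBNext Ultra II kit, per the labels' protocols. Per the submitters' processing notes, Trim Galore, FastQC, MultiQC, STAR, RSEM and GRCm38 were used, with no versions named. The authors deposited expected counts per gene, with 5.80% to 10.8% of values per library not whole, and TPM per gene for the same 16 libraries. Expected counts were rounded, filtered with filterByExpr, scaled by TMM and fitted in 1 model of 5 groups in edgeR 4.0.16 under R 4.3.3 (quasi-likelihood test), with Benjamini-Hochberg adjustment over 14435 genes and a threshold of 0.05. The SE is the log2 fold change divided by the root of F. The Gata1 to Gata2 ratio used TPM and exact permutation tests. The edgeR test was tried on simulated data, only for doxycycline marrow against control marrow. The permutation test was checked on made-up values with a known answer, and DESeq2 was not tried in this way. Alternatives were DESeq2 1.42.0 (size factors or Wald test), no filter, only the groups compared, a replicate block, each replicate left out and, for the ratio, expected counts or TPM + 1. Counts of list genes under other settings were added after seeing the data. All 10 genes are given in every comparison, and for the lists genes are named from the 3 with the smallest p in a comparison, not all of which are printed, with the 5 nearest patterns of Gata1 and Gata2. The genes and lists were chosen with earlier results of these data known. The mature erythroid marker Ahsp was not analysed here.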

Additional observations from a re-analysis of the deposited data

Results flagged for a closer look

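Among 11 values tested in secondary disease, the CPM of Lmo2 stood apart in 1 library. Replicate 4, the shallowest library, had 186 CPM, and the other 3 had 224 to 230.4 CPM. Its gap to the nearest value was 0.863 of the range of the group, above Dixon's 95% critical value for 4 samples. Chance sets a library apart in this way in about 1 of 20 groups.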

How the results depend on the processing

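The counts of the 10 genes called depended on the libraries in the model and on the filter on low counts. Percentages in brackets give the share of all genes tested that passed in the same setting. In doxycycline marrow against control marrow the 5 calls (6.57%) became 2 with no filter on low counts (1.23%) and 8 with only the groups compared (36.6%). With 1 library left out there were 0 to 6 (0.154% to 17%). In doxycycline spleen against control spleen the 1 call (0.741%) became 0 with no filter (0.0353%) and 0 with only the groups compared (0.00766%). It became 3 by the Wald test of DESeq2 (4.84%) and 0 to 5 with 1 library left out (0% to 9.13%). Averaged over the tissues there were 4 to 8 calls with 1 library left out (5.14% to 21.9%). The difference between the tissues had 1 call by DESeq2 (1.73%) and 0 to 2 with 1 library left out (0% to 4.32%). Control spleen against control marrow had 2 calls with only the groups compared (14.7%), 1 by DESeq2 (2.11%) and 0 to 1 with 1 library left out (0% to 1.33%). Doxycycline spleen against doxycycline marrow had 1 call by DESeq2 (3.03%) and 0 to 4 with 1 library left out (0.00665% to 7.18%). Secondary disease against control spleen had 0 calls with no filter (0.473%) and 0 to 1 with 1 library left out (0.405% to 3.67%). Secondary disease against doxycycline spleen had 0 calls with size factors (0.866%), with no filter (0.0918%) and with only the groups compared (0%). It had 2 by DESeq2 (6%) and 0 to 4 with 1 library left out (0% to 8.94%). The cause was not tested.

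Leaving out 1 library put the log2 ratio of Gata1 to Gata2 at -0.75 to -0.37 in marrow, -0.26 to 0.53 in spleen, -0.43 to -0.033 averaged, 0.55 to 1.34 for doxycycline spleen against doxycycline marrow, 0.089 to 0.36 for control spleen against control marrow, 0.19 to 0.27 for secondary disease against control spleen and -0.30 to 0.49 against doxycycline spleen. With expected counts the last 2 turned to -0.0165 and -0.0389.

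Samples with the same replicate number did not deviate together: over 30 pairs the correlation was -0.34 to 0.17, with 5 over 0.1. In 7 of the 30 the library of the same number was the best match in the other group. With the replicate block the calls were 5 of 10 in marrow, 1 in spleen, 6 averaged, 0 for the 3 differences between tissues, 1 for secondary disease against control spleen and 1 against doxycycline spleen, where Nfe2 passed in place of Klf1. Of all genes tested, 13.6% passed with the block in marrow, 2.59% in spleen and 18.6% averaged. The share was 0.27% for the difference of the fold changes, 0.811% between control tissues and 0.589% between doxycycline tissues. For secondary disease it was 2.92% against control spleen and 2.4% against doxycycline spleen. The ratio with the block was -0.59 in marrow (exact p = 0.25) and 0.19 in spleen (exact p = 0.75), and -0.00728 for secondary disease against doxycycline spleen.

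Directions turned for genes close to 0 or resting on 1 library. In control spleen against control marrow Gata2 was 0.00445 with size factors, 0.00444 by DESeq2, 0.0102 with no filter, 0.00189 with the block and 0.000237 with only the groups compared. In secondary disease against doxycycline spleen Lmo2 was 0.0512 with the block and 0.00697 with only the groups compared, and Gfi1b was -0.00308 with the block. The other ranges are over fits that left out 1 library. In doxycycline spleen against control spleen Gata1 ran from -0.15 to 0.0084, Gata2 from -0.37 to 0.42 and Tal1 from -0.13 to 0.26. For the difference between tissues Zfpm1 ran from -1.32 to 0.84, Lmo2 from -0.096 to 0.29 and Ldb1 from -0.0022 to 0.27. In control spleen against control marrow Gata2 ran from -0.078 to 0.077, Lyl1 from -0.021 to 0.14, Ldb1 from -0.097 to 0.043 and Klf1 from -0.025 to 0.11. In doxycycline spleen against doxycycline marrow Zfpm1 ran from -1.03 to 1.12, Tal1 from -0.22 to 0.17, Lmo2 from -0.039 to 0.35, Ldb1 from -0.053 to 0.22, Klf1 from -0.83 to 0.011 and Gfi1b from -0.21 to 0.0013. In secondary disease against control spleen Nfe2 ran from -0.13 to 0.014, and against doxycycline spleen Gata2 ran from -0.70 to 0.089, Lmo2 from -0.18 to 0.21 and Gfi1b from -0.047 to 0.043.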
